A study of Mus musculus with 15 samples.

Results

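The response of mouse muscle satellite cells to adenosine was compared between 2 batches of cultures that received different doses. Satellite cells are the stem cells of skeletal muscle. The comparison used 12 of the 15 libraries of the series, chosen by batch and treatment, and its result for each gene was the adenosine effect in batch 2 minus the adenosine effect in batch 1. Batch 2 held 3 libraries with 0.1 mM adenosine and 3 with DMSO as control, from the strain C57BL/6J. Batch 1 held 3 libraries with 0.05 mM adenosine and 3 with DMSO, and its labels name hindlimb muscle but no strain. All 12 cultures came from hindlimb muscle, grew in F10 medium with horse serum and were treated for 24 hours. The 3 AMP libraries of batch 2 stayed outside the contrast but took part in the fit that estimated the scatter. Dose and batch changed together, so their effects cannot be told apart. Whether replicate libraries stem from different mice or dishes is not stated, so p-values reflect the scatter of these libraries alone, and part of that may be technical.

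Adenosine is a nucleoside that cells sense through surface receptors and also take up through equilibrative transporters. Inside the cell, adenosine kinase turns it into AMP, adenosine deaminase turns it into inosine, and xanthine dehydrogenase carries out the last steps of purine breakdown to uric acid. Nucleotide supply, ribosome production and cell division are coupled in growing cells. Myod1 and Myf5, myogenic transcription factors, and Pax7, which marks satellite cells, identify the cells in culture.

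All 10 satellite cell and myoblast markers and part of the marker lists of other cell types were detected. The 10 summed to 1862 to 2422 CPM (counts scaled to the library total) with adenosine and 4575 to 5161 CPM with DMSO in batch 2, and to 2179 to 2992 CPM with adenosine and 5582 to 5786 CPM with DMSO in batch 1. Of 16 leukocyte markers, 3 were tested, and they summed to 14.2 to 17.5 CPM with adenosine and 3.14 to 4.54 CPM with DMSO in batch 2, and to 17.2 to 24.5 CPM with adenosine and 6.17 to 7.11 CPM with DMSO in batch 1. Of 10 smooth muscle and pericyte markers, 5 were tested, Des of the satellite cell list among them, and they summed to 379 to 524 CPM with adenosine and 1581 to 2017 CPM with DMSO in batch 2, and to 297 to 439 CPM with adenosine and 1166 to 1700 CPM with DMSO in batch 1. Of 8 Schwann cell markers, 4 were tested, with sums of 44.3 to 57.4 CPM with adenosine and 105 to 129 CPM with DMSO in batch 2, and of 40.0 to 84.1 CPM with adenosine and 73.2 to 134 CPM with DMSO in batch 1. The part of such cells in the results was not tested. In bulk RNA, fewer cells of a type and less RNA per cell cannot be told apart. Of 10 fibro-adipogenic progenitor markers, 3 were tested. They summed to 60.3 to 85.9 CPM with adenosine and 68.9 to 80.1 CPM with DMSO in batch 2. In batch 1 the sums were 75.6 to 151 and 112 to 150 CPM. Of 10 endothelial markers, 2 were tested, with sums of 3.39 to 6.60 CPM over the 12 libraries. Ptprc, Cdh5, Pdgfra and Myh11, defining markers of leukocytes, endothelial cells, fibro-adipogenic progenitors and smooth muscle, were not among the tested genes. That does not show that such cells were absent. The libraries of batch 2 held 11482198 to 14201933 counts each, and those of batch 1 held 14683346 to 20799588. Genes that collect reads of ribosomal RNA (CT010467.1, Gm26917, Gm42418, Gm15564 and Lars2) took 14.6% to 20.2% of counts with adenosine and 16.4% to 18.1% with DMSO in batch 2, against 4.48% to 7.37% with adenosine and 8.68% to 10.6% with DMSO in batch 1. With those genes left out, 1496 differences were called in place of the 1560 described next.

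Adenosine changed 5412 genes in the same direction in both batches, and more genes were called in batch 2 than in batch 1. Of 13049 genes tested, 1560 (12%) had a different adenosine effect at an adjusted p under 0.05 (edgeR quasi-likelihood test, Benjamini-Hochberg), 821 with a positive difference (6.29%) and 739 with a negative one (5.66%). At 0.1 mM in batch 2 adenosine changed 8352 genes (64.0%), raising 4202 (32.2%) and lowering 4150 (31.8%). At 0.05 mM in batch 1 it changed 6665 (51.1%), raising 3322 (25.5%) and lowering 3343 (25.6%). With library totals in place of TMM scaling the split was 5947 raised and 2611 lowered in batch 2, and 4760 raised and 2298 lowered in batch 1. The 5412 genes called in both batches in the same direction (41.5%) were 2638 rises and 2774 falls, which is 64.8% of the batch 2 calls and 81.2% of the batch 1 calls. Of those 5412, 605 also had a called difference, and in 550 of them the batch 2 effect was the larger. A further 690 called differences had an effect called in batch 2 alone, and 182 had one called in batch 1 alone. Such counts depend on replicate scatter, which was larger in batch 1. Pearson r between replicates was 0.973 to 0.983 in batch 1 and 0.983 to 0.994 in batch 2, over genes averaging at least 10 CPM. With limma-voom and sample weights per batch, 9120 genes were called in batch 2 and 5592 in batch 1. Both contrasts had their own DMSO libraries. Across the 13049 genes, called or not, the 2 effects had the same sign in 80.7%, and their Pearson r was 0.818, given as a description since genes are not independent replicates. The SD of the log2 fold changes was 1.34 in batch 2 and 1.10 in batch 1. The smallest called difference was 0.35 on the log2 scale and the median size was 0.85, and the median standard error over all genes was 0.24. Counts of called genes in the lists below are to be read beside the shares of all genes: 12% called, 6.29% positive and 5.66% negative.

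**Figure D1:**
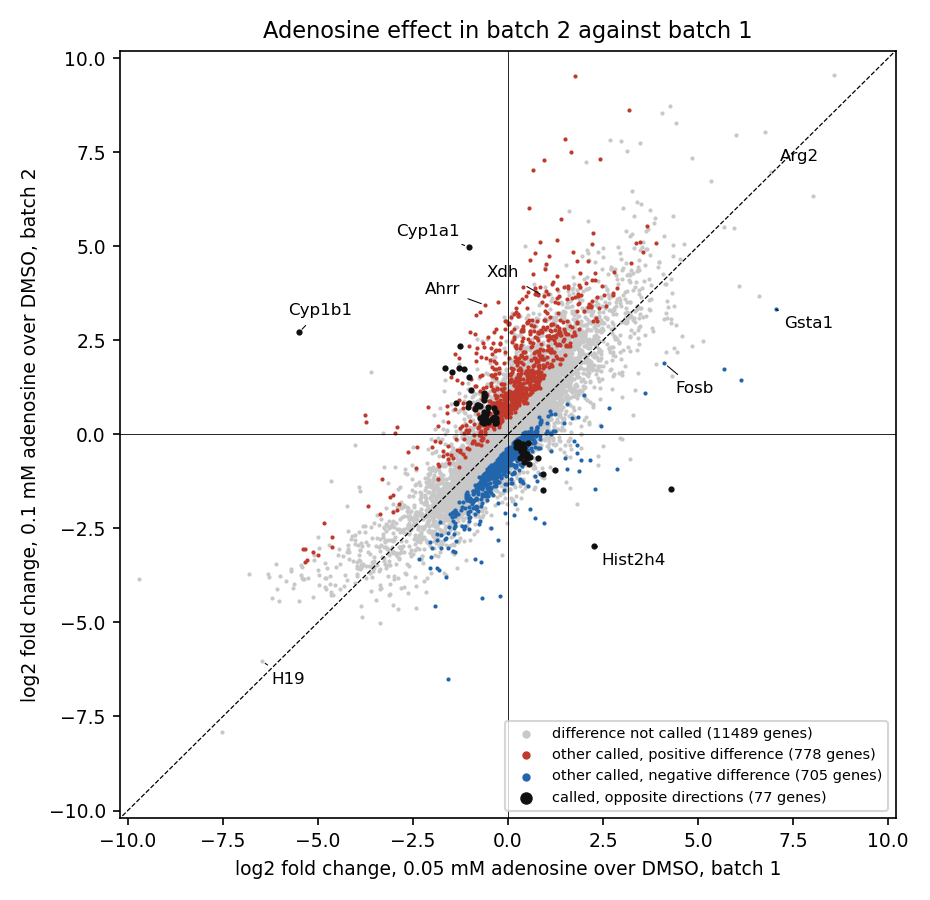
Each point is 1 of 13049 genes, with its log2 fold change with 0.1 mM adenosine over DMSO in batch 2 on the vertical axis and with 0.05 mM adenosine over DMSO in batch 1 on the horizontal axis; the dashed line marks equal effects and colours mark the 1560 called differences. The points scatter along the line (Pearson r 0.818 across genes), while Cyp1a1 and Cyp1b1 lie above the horizontal axis and left of the vertical one.

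Those counts depended on single libraries. Without DMSO replicate 2 of batch 2 the test called 897 differences, and without DMSO replicate 3 of batch 2 it called 1038. With library totals the median difference of all genes moved from 0.0011 to 0.11, and the calls became 1060 positive and 333 negative.

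Among targets of the aryl hydrocarbon receptor, every called difference was positive. This receptor is a ligand-activated transcription factor that pairs with Arnt and switches on genes of xenobiotic metabolism, and its core binding motif is GCGTG. Of 8 tested genes of the list, 5 had a positive difference, 0 a negative one and 3 were not called, with a median difference of 1.29 beside 0.0011 for all genes. That median was the highest of the 44 gene lists, but not without adenosine replicate 1 of batch 1, nor among genes averaging at least 10 CPM, where 3 of 5 tested members were called and their median was 0.58. The median effect of the list was 1.87 in batch 2 and -0.44 in batch 1. The promoters of the 3 genes with the largest differences are shown because those genes rose together in batch 2; each runs 5′ to 3′ on the gene's strand over 300 bases, from RefSeq on GRCm38.p6, with GCGTG or its reverse complement CACGC in capitals.
Cyp1a1, chr9:57697363-57697662, plus strand: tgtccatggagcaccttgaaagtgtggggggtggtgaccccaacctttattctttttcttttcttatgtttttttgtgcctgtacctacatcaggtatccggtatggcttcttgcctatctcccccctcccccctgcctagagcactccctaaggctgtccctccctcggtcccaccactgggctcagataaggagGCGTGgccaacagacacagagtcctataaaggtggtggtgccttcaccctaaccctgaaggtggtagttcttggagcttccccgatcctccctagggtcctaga
Cyp1b1, chr17:79715012-79715311, minus strand: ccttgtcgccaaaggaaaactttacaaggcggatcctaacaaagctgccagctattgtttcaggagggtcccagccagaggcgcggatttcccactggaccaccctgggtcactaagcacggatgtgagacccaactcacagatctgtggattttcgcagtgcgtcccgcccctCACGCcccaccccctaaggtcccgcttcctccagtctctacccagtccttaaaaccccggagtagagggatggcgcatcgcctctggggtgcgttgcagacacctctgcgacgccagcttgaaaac
Ahrr, chr13:74292282-74292581, minus strand: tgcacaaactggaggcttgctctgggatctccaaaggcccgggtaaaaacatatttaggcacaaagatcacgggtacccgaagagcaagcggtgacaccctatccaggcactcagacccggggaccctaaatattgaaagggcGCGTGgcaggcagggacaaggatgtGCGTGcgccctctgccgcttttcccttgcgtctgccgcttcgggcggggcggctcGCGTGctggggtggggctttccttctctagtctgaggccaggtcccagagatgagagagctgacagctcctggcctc
The motif was present in 5 of the 6 promoters found for the list and in 51.7% of the 12023 promoters of tested genes, so a match in this window is common and is given as a description only.

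Cyp1a1, a cytochrome P450 that oxidises aromatic compounds, had 23.6, 22.9 and 30.7 CPM with 0.1 mM adenosine, against 0.775, 0.871 and 0.319 CPM with DMSO in batch 2. In batch 1 it had 1.29, 0.559 and 0.473 CPM with 0.05 mM adenosine, against 1.49, 1.66 and 0.987 CPM with DMSO. The adenosine libraries of batch 2 stood above all the others, and in batch 1 the groups overlapped. Its log2 fold change was 4.98 (SE 0.37, adjusted p = 1.97e-09) in batch 2 and -1.04 (SE 0.39, adjusted p = 0.0321) in batch 1, and the difference was 6.02 (SE 0.54, adjusted p = 8.27e-06). Cyp1b1, a related enzyme, had 3.72, 3.99 and 2.12 CPM with adenosine against 0.141, 0.61 and 0.478 CPM with DMSO in batch 2. In batch 1 the order was the other way round, with 0.409, 0.0621 and 0 CPM with adenosine against 4.47, 9.90 and 4.44 CPM with DMSO. The groups were apart in both batches, and the difference was 8.20 (SE 0.95, adjusted p = 1.04e-04). Ahrr, a repressor of the receptor, had 8.09, 10.2 and 6.69 CPM with adenosine against 0.775, 0.0871 and 0.956 CPM with DMSO in batch 2, and it stayed between 0.332 and 1.48 CPM in all 6 libraries of batch 1. Its difference was 4.03 (SE 0.80, adjusted p = 0.00418). Aldh3a1, an aldehyde dehydrogenase, was the fifth called gene and was added here after its values were seen. It rose in batch 2 (log2 fold change 1.03) and fell in batch 1 (-0.60), with a difference of 1.63 (adjusted p = 0.00549).

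Nqo1, a quinone reductase that NRF2 also regulates, rose in both batches. It had 287, 325 and 318 CPM with adenosine against 17.3, 23.1 and 17.4 CPM with DMSO in batch 2, and 197, 204 and 211 CPM with adenosine against 23.6, 30.9 and 24.6 CPM with DMSO in batch 1. Its difference was 0.95 (adjusted p = 0.00148). The 3 uncalled genes were Tiparp (difference 0.52, adjusted p = 0.0648), the receptor gene Ahr (0.02) and Arnt (-0.12). Ahr itself rose in both batches, by log2 fold changes of 0.67 and 0.65 in batch 2 and batch 1. Among the 21 genes of the NRF2 list, 3 differences were positive and 2 negative. Gstm1, a glutathione transferase with near-identical relatives, rose more in batch 2 (3.42 against 2.57), while Gsr, glutathione reductase, fell in batch 2 (-0.46) and rose in batch 1 (0.34).

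**Figure D2:**
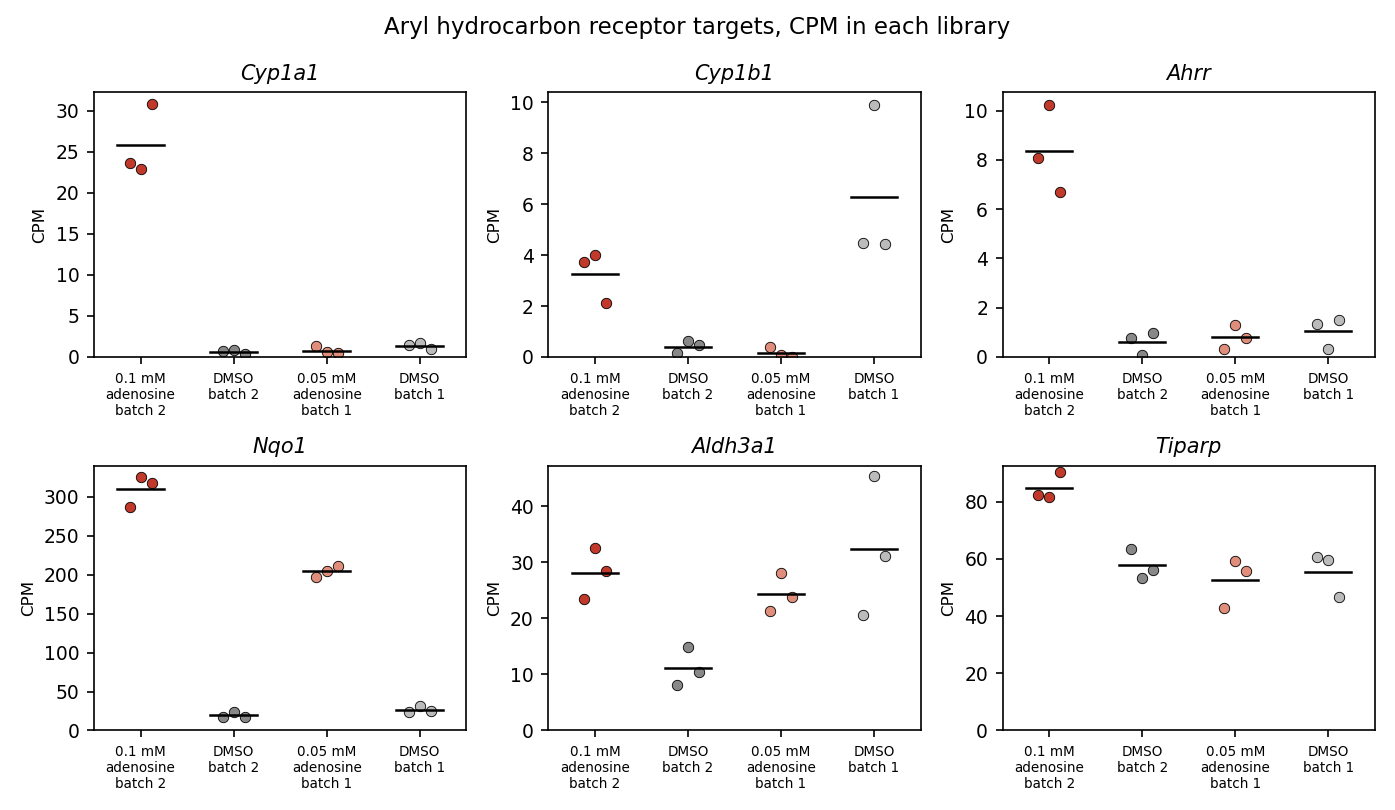
CPM of 6 targets of the aryl hydrocarbon receptor in each of the 12 libraries, with points for libraries and lines for group means; each panel has its own vertical axis from 0. Cyp1a1 and Ahrr are high in the 3 adenosine libraries of batch 2 alone, whereas Nqo1 is high with adenosine in both batches.

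Slc29a1, Slc29a2 and Adk, which bring adenosine into the cell and phosphorylate it, fell further in batch 2. Of 28 tested genes of nucleoside transport and purine turnover, 8 had a negative difference, 1 a positive one and 19 were not called; the positive calls numbered 2 without DMSO replicate 1 of batch 2 or DMSO replicate 1 of batch 1. The list's median difference was -0.22 and stayed below 0 under library totals (-0.11). Adk, adenosine kinase, had 29.5, 41.1 and 35.7 CPM with adenosine against 117, 113 and 106 CPM with DMSO in batch 2, and 45.6, 49.3 and 54.2 CPM with adenosine against 102, 93.0 and 91.3 CPM with DMSO in batch 1. It fell in both batches without overlap, by 1.97 on the log2 scale in batch 2 and by 1.14 in batch 1, a difference of -0.83 (SE 0.15, adjusted p = 0.00195). Slc29a1, the main equilibrative nucleoside transporter, fell by 1.80 on the log2 scale in batch 2 and by 0.91 in batch 1 (adjusted p = 0.00198 for the difference). Slc29a2, a second transporter of that family, had 7.85, 8.21 and 8.47 CPM with adenosine against 30.3, 35.2 and 32.3 CPM with DMSO in batch 2. In batch 1 it had 13.1, 16.0 and 10.8 CPM with adenosine against 19.8, 17.3 and 20.5 CPM with DMSO, a smaller gap with no overlap. Its difference was -1.58 (SE 0.25, adjusted p = 0.00115).

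Xdh, xanthine dehydrogenase, was the 1 member with a positive difference. It had 18.1, 22.4 and 20.6 CPM with adenosine against 1.2, 1.31 and 1.35 CPM with DMSO in batch 2, and 13.1, 19.8 and 16.3 CPM with adenosine against 7.16, 7.24 and 7.89 CPM with DMSO in batch 1. Its difference was 2.73 (SE 0.31, adjusted p = 9.50e-05). The adenosine groups overlapped between batches, and the DMSO level was lower in batch 2. Ada, adenosine deaminase, fell in both batches, by 0.87 on the log2 scale in batch 2 and by 0.96 in batch 1, and had no called difference. Of 7 tested receptors for adenosine and nucleotides and 8 ectonucleotidases, 0 had a called difference. Adora2b, an adenosine receptor that raises cAMP, fell in both batches, by 3.55 and 4.76 on the log2 scale in batch 2 and batch 1.

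Called differences among enzymes of purine and pyrimidine synthesis were negative. Of 16 genes of de novo purine synthesis, 6 had a negative difference and 0 a positive one, with a median of -0.37, and the negative calls ranged from 4 to 9 over the alternatives. In that list adenosine lowered 10 genes in batch 2 and 5 in batch 1, and raised 1 and 3. Impdh1, which makes the precursor of guanine nucleotides, had 36.8, 41.8 and 37.4 CPM with adenosine against 69.5, 68.3 and 73.5 CPM with DMSO in batch 2, and 69.7, 69.2 and 70.1 CPM with adenosine against 85.0, 75.8 and 82.7 CPM with DMSO in batch 1. Its difference was -0.75 (adjusted p = 0.00191), and Pfas, an enzyme of the purine ring pathway, had the same size of difference at -0.75 (adjusted p = 0.00381). Prps1, which makes the ribose phosphate donor, was not called in batch 2 (log2 fold change 0.07) and rose in batch 1 (0.71). Adsl had a difference of -0.56. In pyrimidine synthesis, 3 of 18 genes had a negative difference, namely Ctps (-0.62), Uck2 (-0.59) and Cad (-0.51), and 5 had one without adenosine replicate 1 of batch 1. In serine and folate one-carbon metabolism, which feeds carbon into purines, 5 of 19 were negative and 1 was positive. The negative calls numbered 3 with library totals, and 3 without adenosine replicate 2 of batch 2, adenosine replicate 3 of batch 1 or any DMSO library of batch 2. Mthfd2, a mitochondrial folate enzyme, fell by 2.21 on the log2 scale in batch 2 and by 1.48 in batch 1, and Shmt2, its partner in that pathway, fell in batch 2 (-0.73) and was not called in batch 1 (-0.12), with a difference of -0.61 (adjusted p = 0.0160).

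Called differences among genes for making ribosomes were negative. Of 43 genes of ribosome biogenesis, 14 had a negative difference and 0 a positive one, with a median of -0.34, and the number of negative calls ranged from 4 with library totals to 20 over the alternatives. It was 9 without adenosine replicate 2, 8 without DMSO replicate 1 and 8 without DMSO replicate 3 of batch 2, and 5 without adenosine replicate 3 of batch 1. Adenosine lowered 33 of these genes in batch 2 and 12 in batch 1. Npm1, a nucleolar chaperone, had 720, 884 and 826 CPM with adenosine against 2674, 2397 and 2458 CPM with DMSO in batch 2, and 866, 1322 and 1338 CPM with adenosine against 2481, 2294 and 2282 CPM with DMSO in batch 1. It fell in both, further in batch 2 (difference -0.74, adjusted p = 0.00767). Wdr43, a nucleolar factor, fell in batch 2 (-0.50) and was not called in batch 1 (0.14). Ribosomal protein genes themselves fell to a like extent, with medians of -0.97 in batch 2 and -0.86 in batch 1 over 79 genes and 5 called differences, all negative, a number that was 1 to 3 without any 1 of 9 libraries and 1 with library totals. Rps2 fell in both batches and its difference was not called (0.21, adjusted p = 0.350).

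Negative and positive differences numbered 6 and 0 of 20 for aminoacyl-tRNA synthetases, 4 and 0 of 25 for translation factors, 6 and 0 of 47 for the mitochondrial ribosome, and 6 and 0 of 31 for the proteasome. With library totals the counts of negative calls in the same order were 1, 0, 1 and 0. They were 2, 2, 3 and 2 without DMSO replicate 2 of batch 2, 1, 2, 3 and 2 without adenosine replicate 3 of batch 1, and 7, 8, 8 and 12 without adenosine replicate 1 of batch 1. Without adenosine replicate 2 of batch 2 the synthetases had 2 and the proteasome 3, without DMSO replicate 3 of batch 2 the synthetases and the translation factors had 2 each, without adenosine replicate 3 or DMSO replicate 1 of batch 2 the synthetases had 3, and without DMSO replicate 2 of batch 1 the translation factors had 2. In the proteasome list adenosine raised 1 gene and lowered 8 in batch 2, and raised 13 and lowered 1 in batch 1. Psma5, a core subunit, had a log2 fold change of -0.25 in batch 2 and 0.23 in batch 1, both called. Eif4a1, an RNA helicase of translation initiation, fell in batch 2 (-0.75) and was not called in batch 1 (-0.20).

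Stress and energy genes were mixed. Of 34 genes of the integrated stress response, the programme that Atf4 runs when amino acids are short, 7 had a negative and 2 a positive difference. Negative and positive calls numbered 2 and 2 without DMSO replicate 2 of batch 2, 4 and 0 without DMSO replicate 3 of batch 2, 3 and 2 without adenosine replicate 2 of batch 2 or adenosine replicate 3 of batch 1, and 4 and 3 with library totals. They numbered 7 and 0 without adenosine replicate 2 of batch 1, and 7 and 5 without DMSO replicate 1 of batch 1. Atf4 had 316, 269 and 317 CPM with adenosine against 605, 614 and 605 CPM with DMSO in batch 2, and 304, 345 and 382 CPM with adenosine against 495, 512 and 515 CPM with DMSO in batch 1. Its difference was -0.56 (adjusted p = 0.0210). Asns, asparagine synthetase, had a difference of -0.61 (adjusted p = 0.00861). Atf3 and Ddit3, stress factors downstream of Atf4, rose in both batches without a called difference, though that of Atf3, 1.07 (adjusted p = 0.0740), was called with the replicate block (1.14, adjusted p = 0.0249). In glycolysis 7 of 23 genes had a negative difference and 0 a positive one, with a median of -0.40. The negative calls numbered 4 without DMSO replicate 2 of batch 2, 4 without DMSO replicate 2 of batch 1 and 3 with library totals. Hk2, hexokinase, had 9.42, 10.6 and 8.98 CPM with adenosine against 27.2, 21.1 and 24.7 CPM with DMSO in batch 2, and 31.5, 22.8 and 23.3 CPM with adenosine against 34.5, 32.6 and 29.7 CPM with DMSO in batch 1. The groups were apart in batch 2 and overlapped in batch 1. Its difference was -1.13 (SE 0.24, adjusted p = 0.00564).

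**Figure D3:**
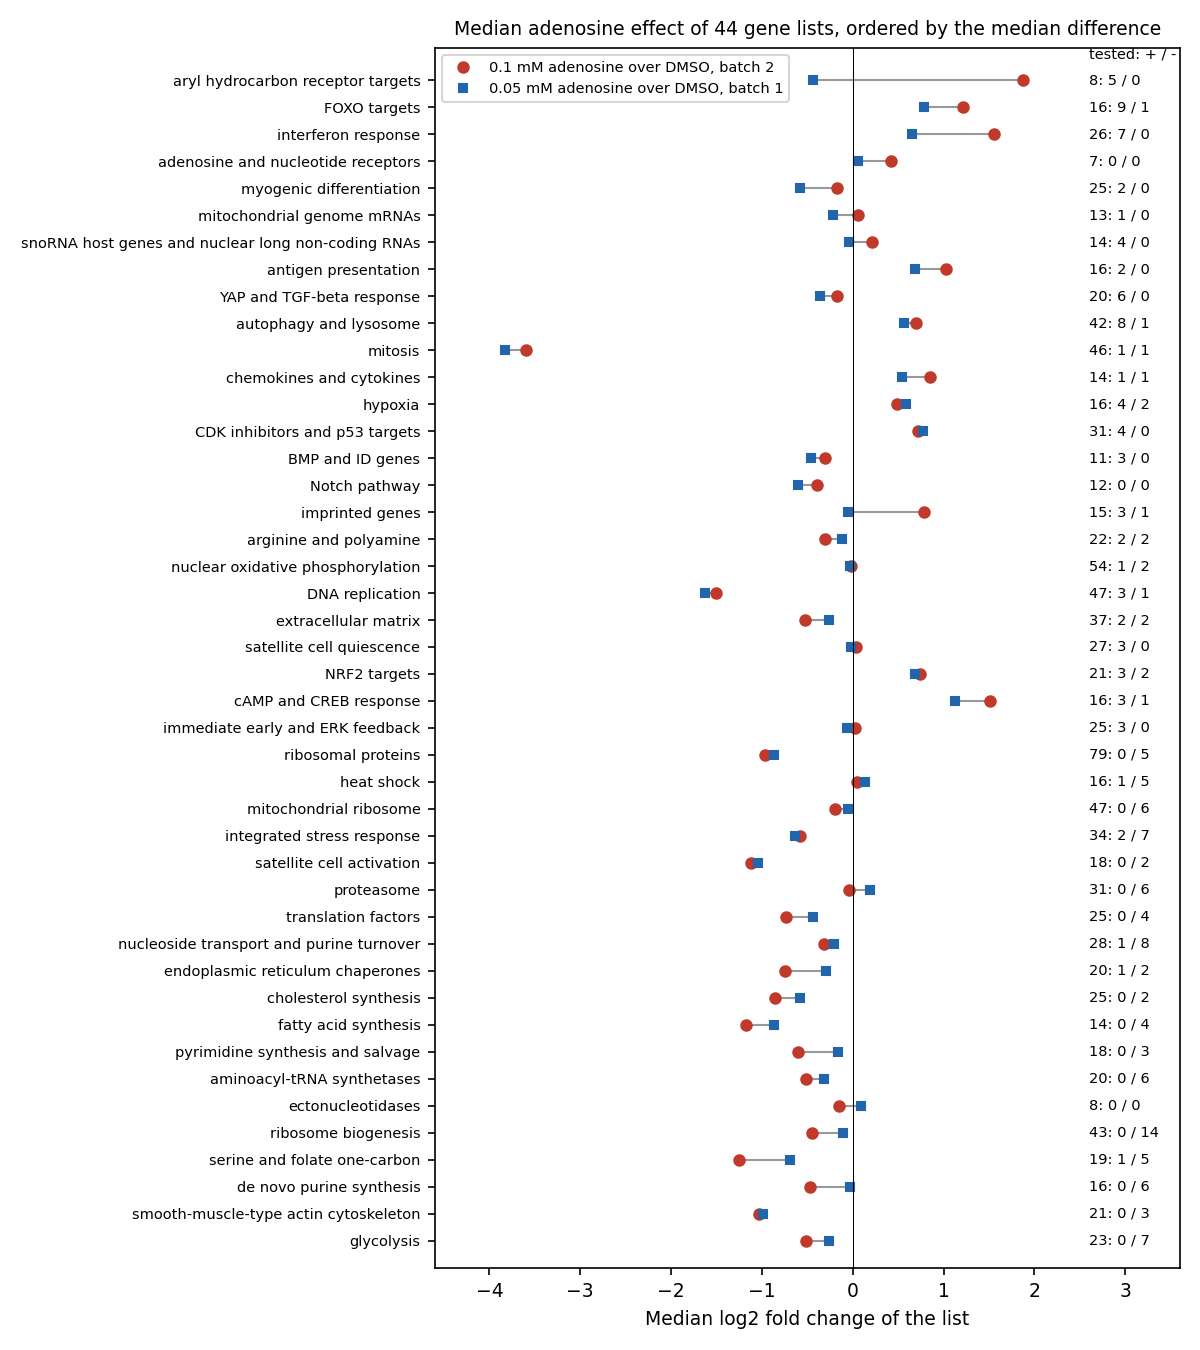
Median log2 fold change of each of 44 gene lists with 0.1 mM adenosine over DMSO in batch 2 (circles) and with 0.05 mM adenosine over DMSO in batch 1 (squares), with the tested genes and the called positive and negative differences at the right. Lists are ordered by their median difference, from 1.29 for targets of the aryl hydrocarbon receptor at the top to -0.40 for glycolysis at the bottom.

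Targets of FOXO transcription factors, which act when growth factor signalling is low, had mostly positive called differences. Of 16 tested, 9 had a positive difference, 1 a negative one and 6 were not called. The median difference was 0.97. The negative call was lost without any 1 of 10 libraries, and with genes averaging at least 10 CPM the positive calls numbered 6. Txnip, an arrestin-like protein that limits glucose uptake, had 158, 148 and 169 CPM with adenosine against 9.01, 8.80 and 7.41 CPM with DMSO in batch 2, and 205, 248 and 261 CPM with adenosine against 31.0, 40.9 and 39.2 CPM with DMSO in batch 1. It rose in both batches, and its difference was 1.45 (SE 0.17, adjusted p = 1.12e-04). Arrdc3, of the same protein family, and Irs2, an adaptor of the insulin receptor, had differences of 1.33 (adjusted p = 1.87e-04) and 1.31 (adjusted p = 0.00241). Foxo3 itself rose in batch 2 (0.94) and was not called in batch 1 (-0.01).

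Among 31 genes of CDK inhibitors and p53 targets, 4 had a positive difference and 0 a negative one. Ddit4, an inhibitor of mTOR signalling, had 83.3, 80.0 and 87.5 CPM with adenosine against 8.10, 8.27 and 7.01 CPM with DMSO in batch 2, and 131, 105 and 99.3 CPM with adenosine against 39.9, 45.6 and 49.8 CPM with DMSO in batch 1. Its difference was 2.00 (SE 0.18, adjusted p = 8.27e-06). Btg2, an antiproliferative gene, Trp53inp1 and Gadd45b had differences of 1.08, 0.97 and 0.75. Cdkn1a, the CDK inhibitor p21, rose in both batches with no called difference (-0.27, adjusted p = 0.296). Of 42 genes of autophagy and lysosomes, 8 differences were positive and 1 was negative. The positive calls numbered 5 without adenosine replicate 3 of batch 2, DMSO replicate 2 of batch 2 or adenosine replicate 2 of batch 1, and over the alternatives they reached 15. Gpnmb, a glycoprotein of lysosomes, had 203, 204 and 212 CPM with adenosine against 4.58, 2.96 and 3.19 CPM with DMSO in batch 2, and 282, 330 and 293 CPM with adenosine against 11.5, 29.2 and 22.5 CPM with DMSO in batch 1. Its difference was 1.88 (adjusted p = 0.00188). Ulk1, the kinase that starts autophagy, had a difference of 1.13 and Map1lc3b, which coats autophagosomes, one of 0.59.

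Called differences among interferon response genes were positive. Of 26 tested, 7 had a positive and 0 a negative difference, with a median of 0.87, and the calls numbered 4 without DMSO replicate 3 of batch 2 and 4 without DMSO replicate 2 of batch 1. Adenosine raised 18 and lowered 3 in batch 2, and raised 13 and lowered 3 in batch 1. Ddx58, the RNA sensor RIG-I, had 25.3, 26.8 and 30.1 CPM with adenosine against 8.31, 6.44 and 7.09 CPM with DMSO in batch 2. In batch 1 the groups overlapped, with 16.9, 18.3 and 15.1 CPM with adenosine against 15.9, 24.6 and 14.7 CPM with DMSO. Its difference was 1.93 (SE 0.26, adjusted p = 3.76e-04). Irf1, an interferon regulatory factor, had a difference of 0.82 (adjusted p = 0.00214). In antigen presentation, 2 of 16 genes were called, H2-K1 (0.58), a class I histocompatibility gene with near-identical relatives, and Tapbp (0.71), which loads peptides onto class I molecules, and 4 were called without adenosine replicate 1 or adenosine replicate 2 of batch 1.

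Cell division genes fell in both batches, 45 of 46 mitosis genes in batch 2 and 44 in batch 1. The median effect of 46 mitosis genes was -3.59 in batch 2 and -3.83 in batch 1, with 1 positive and 1 negative difference called, and that of 47 DNA replication genes was -1.5 and -1.63, with 3 positive and 1 negative. The calls depended on the setting, with 0 to 10 positive and 1 to 7 negative for mitosis and 1 to 5 positive and 0 to 1 negative for DNA replication over the alternatives. The replicate block gave 10 positive and 3 negative calls for mitosis. Without DMSO replicate 1 of batch 1 they were 0 and 7, without DMSO replicate 2 of that batch 3 and 1, and without DMSO replicate 3 of that batch 4 and 1. For DNA replication the positive calls numbered 5 without DMSO replicate 3 of batch 1 and 1 without adenosine replicate 2 of batch 2 or adenosine replicate 3 of batch 1. The median difference of the mitosis list, 0.24, was -0.49 without DMSO replicate 1 of batch 1 and -0.15 without adenosine replicate 2 of batch 2. In DMSO replicate 1 of batch 1 the mitosis genes summed to 2664 CPM, against 1100 and 1172 CPM in the other DMSO libraries of the batch. With DMSO in batch 2 they summed to 3436 to 5195 CPM. The DNA replication genes summed to 8710 to 8971 CPM with DMSO in batch 2 and to 4468 to 6677 CPM in batch 1. The part of these control levels in the differences was not tested. The called genes with a positive difference fell less in batch 2. Mcm10, a replication initiation factor, had 4.38, 10.6 and 7.20 CPM with adenosine against 59.1, 69.2 and 61.2 CPM with DMSO in batch 2, and 0.749, 1.06 and 0.592 CPM with adenosine against 40.8, 26.1 and 18.4 CPM with DMSO in batch 1. Its difference was 1.93 (adjusted p = 0.0166), and that of the transcription factor gene E2f1 was 1.42 (adjusted p = 0.0105). Mki67, a marker of cycling cells, had a difference of 2.59 that was not called (SE 0.87, adjusted p = 0.0605) and was called with the replicate block (2.33, adjusted p = 0.00120). Ccnb1, cyclin B1, had an uncalled one of 0.81 (SE 1.03).

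Id1, Id2 and Id3, inhibitors of myogenic factors and targets of BMP signalling, were the 3 called genes of 11 in their list, all positive. Id2 had 359, 393 and 430 CPM with adenosine against 365, 328 and 379 CPM with DMSO in batch 2, where the groups overlapped. In batch 1 it had 263, 292 and 272 CPM with adenosine against 436, 480 and 424 CPM with DMSO, a fall by 0.90 on the log2 scale. The difference was 0.73 (SE 0.12, adjusted p = 0.00114). Id1 and Id3 fell in both batches and less in batch 2, with differences of 0.92 and 0.67. In the YAP and TGF-beta list, 6 of 20 differences were positive and 0 negative, with 3 positive calls without adenosine replicate 1 of batch 2 and 11 with library totals that left out the genes like ribosomal RNA. Smad7, a feedback inhibitor of TGF-beta signalling, had 37.6, 28.9 and 32.6 CPM with adenosine against 6.06, 4.96 and 6.61 CPM with DMSO in batch 2, and 53.1, 35.0 and 42.0 CPM with adenosine against 23.4, 32.6 and 28.3 CPM with DMSO in batch 1 (difference 1.75, adjusted p = 8.67e-04). Ctgf, a matricellular protein gene, was not called in batch 2 (0.35, adjusted p = 0.0565) and fell in batch 1 (-1.0), with a difference of 1.35.

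Pax7 rose in batch 2, where it had 61.8, 66.9 and 69.1 CPM with adenosine against 46.2, 40.4 and 38.4 CPM with DMSO. In batch 1 it had 63.9, 62.4 and 55.6 CPM with adenosine against 57.2, 64.9 and 55.2 CPM with DMSO, and those groups overlapped. The difference was 0.51 (SE 0.15, adjusted p = 0.0281) and was lost without any 1 of 6 libraries. Myod1 and Myf5 fell in both batches, and their differences of 0.02 (SE 0.19) and -0.23 (SE 0.17) were not called. Vcam1, an adhesion molecule of satellite cells, fell further in batch 2 (difference -0.67, adjusted p = 0.0232). Gpx3, a secreted peroxidase, rose in both and further in batch 2 (1.19, adjusted p = 0.00205). In myogenic differentiation, 2 of 25 genes were called, Ckb (1.48), the brain-type creatine kinase, and Neb (1.54), a giant protein of the thin filament. The call of Neb was lost without adenosine replicate 1, adenosine replicate 2 or DMSO replicate 1 of batch 2, and without DMSO replicate 2 of batch 1. Myog, a factor of late differentiation, was not called in batch 2 (-0.88) and fell in batch 1 (-2.97), with an uncalled difference of 2.09 (SE 1.11) that was called with the replicate block (2.21, adjusted p = 0.0198).

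**Figure D4:**
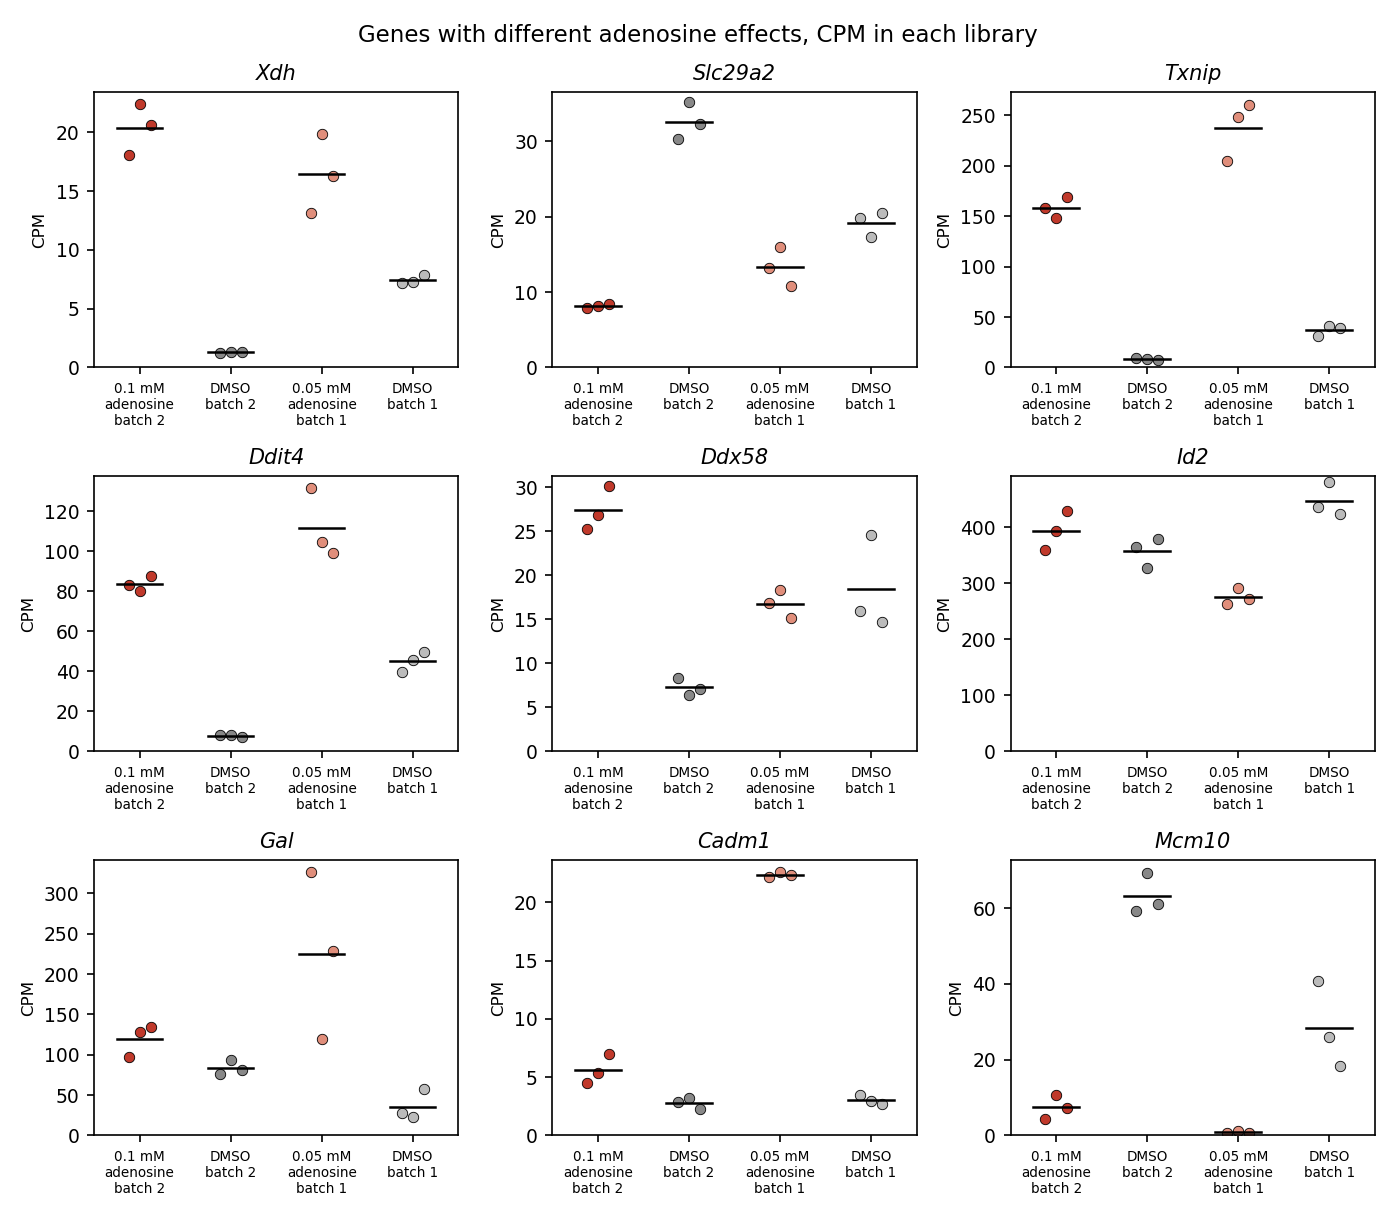
CPM of 9 genes in each of the 12 libraries, with points for libraries and lines for group means; each panel has its own vertical axis from 0. Xdh, Txnip and Ddit4 have DMSO values that are lower in batch 2 than in batch 1, whereas Cadm1 has adenosine values of 4.46 to 7.03 CPM in batch 2 and 22.1 to 22.6 CPM in batch 1.

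Among genes that reached 10 CPM in a group, the 10 largest positive differences included those of Cyp1a1, Gm43256, Gm43260, Gm43379, Ngfr, Star, B3galt2, Dpep1 and Gm38082. Star, which brings cholesterol into mitochondria, had 11.9, 11.5 and 10.8 CPM with adenosine against 1.34, 1.83 and 1.04 CPM with DMSO in batch 2, and it was not called in batch 1 (log2 fold change -0.38). B3galt2, a galactosyltransferase, had log2 fold changes of 3.12 in batch 2 and 0.08 in batch 1. Ngfr, a neurotrophin receptor, rose in both, by 5.34 and 2.24. Dpep1, a dipeptidase, was not called in batch 2 (0.04) and fell in batch 1, where it had 3.68, 8.26 and 2.37 CPM with adenosine against 23.5, 47.5 and 27.1 CPM with DMSO.

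The 10 largest negative differences fell on Gsta1, Apobec1, Sema5a, Gal, Fosb, Gnai1, Dusp9, Cadm1, Hist1h4i and Prkd1. Cadm1, a cell adhesion molecule, had 4.46, 5.32 and 7.03 CPM with adenosine against 2.89, 3.22 and 2.31 CPM with DMSO in batch 2, and 22.1, 22.6 and 22.4 CPM with adenosine against 3.51, 2.99 and 2.71 CPM with DMSO in batch 1. It rose in both batches, further in batch 1 (difference -1.97, SE 0.34, adjusted p = 0.00172). Gal, the neuropeptide galanin, had 96.8, 128 and 135 CPM with adenosine against 75.7, 93.2 and 81.1 CPM with DMSO in batch 2. It was not called in batch 2 and rose in batch 1, with 326, 120 and 228 CPM with adenosine against 27.4, 22.5 and 57.5 CPM with DMSO, and the difference was -2.24 (SE 0.42, adjusted p = 0.00331). Sema5a, a guidance molecule, rose by 1.11 in batch 2 and by 3.6 in batch 1, and Fosb, an immediate early factor, by 1.89 and 4.11. Gsta1, a glutathione transferase with near-identical relatives, rose in both with log2 fold changes of 3.32 in batch 2 and 7.05 in batch 1, the second against 0, 0.199 and 0.0617 CPM with DMSO. Apobec1, an RNA-editing deaminase, had 45.4, 6.09 and 56.3 CPM with adenosine in batch 1, so 1 of those 3 libraries lay below all 3 DMSO values of 7.64 to 9.19 CPM. Prkd1, a kinase, and Gnai1, a G protein subunit, fell in batch 2, by 3.62 on the log2 scale for Prkd1 (1.83 in batch 1) and by 2.49 for Gnai1 (not called in batch 1). Dusp9, a phosphatase that inactivates MAP kinases, likewise fell in batch 2 (-2.10) and was not called in batch 1 (-0.08).

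Adenosine moved 77 genes (0.590%) in opposite directions, 43 higher in batch 2 and lower in batch 1 (0.330%) and 34 the reverse (0.261%). The number was 50 without adenosine replicate 1 of batch 2, 44 without DMSO replicate 2 of batch 2, 122 without adenosine replicate 1 of batch 1 and 51 without DMSO replicate 2 of batch 1. By the rule on the smaller of the 2 effects, the genes higher in batch 2 were Cyp1b1, Cyp1a1, Dqx1 and 5 transcripts of the TEC class, and apart from Cyp1a1 and Cyp1b1 none passed 5.32 CPM in any library. Among genes lower in batch 2, Hist2h4, a histone H4 gene with near-identical copies, had 1.24, 1.25 and 0.932 CPM with adenosine against 6.48, 7.93 and 7.33 CPM with DMSO in batch 2, and 1.77, 0.808 and 1.78 CPM with adenosine against 0.0481, 0.133 and 0.617 CPM with DMSO in batch 1. Tnfrsf19, a receptor of the tumour necrosis factor family, had 9.08, 8.99 and 11.4 CPM with adenosine against 15, 12.4 and 13.5 CPM with DMSO in batch 2, and 27.3, 17.2 and 25.3 CPM with adenosine against 14.1, 13.5 and 13.7 CPM with DMSO in batch 1. Its groups did not overlap in either batch.

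Some classes of transcripts outside protein-coding genes had a larger share of positive differences than coding genes (5.65%). By the class in the GENCODE annotation, 21.6% of genes with a positive difference and 1.49% of those with a negative one were not protein-coding, beside 12.7% of all tested genes. The TEC class, loci that the annotation holds provisionally, had 70 positive and 0 negative differences among 272 genes, and the sense-intronic class 15 and 0 of 40. LincRNAs had 27 and 0 of 217, and antisense transcripts 24 and 1 of 230. Other classes did not share this: processed pseudogenes had 5 and 6 of 530, with a median difference of -0.22, and snoRNAs 0 and 0 of 52. The median difference was 1.48 for TEC genes and 0.24 for protein-coding genes with a mean under 5 CPM, and the median level was 1.46 CPM for TEC genes and 2.27 CPM for those coding genes. A gene was tested only if listed for batch 2, where the smallest total over 9 libraries was 101 counts. Those libraries include adenosine and AMP ones, so scarce transcripts can pass through high levels there, which can favour positive differences. How far this shaped the counts of these classes was not tested. TEC genes summed to 851 to 1078 CPM with adenosine against 173 to 237 CPM with DMSO in batch 2, and to 824 to 958 CPM with adenosine against 436 to 546 CPM with DMSO in batch 1. Adenosine raised the sum in both batches without overlap. A total of 201 TEC genes lay inside 149 tested protein-coding genes, and the median difference was 1.56 for those TEC genes and -0.03 for their hosts. Gm43256 and Gm43260, both in Magi3 (chromosome 3), had differences of 3.53 and 3.43 beside 0.84 for Magi3 (adjusted p = 0.0574). Of the 201, 178 lay on the strand of a host, as Gm43256 and Gm43260 do. Batch 1 was counted with no strand option, and the setting for batch 2 is not given. Reads of unspliced host transcripts and of TEC loci inside them therefore cannot be told apart, whichever strand the locus lies on.

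Neat1 and Malat1, nuclear long non-coding RNAs, rose further in batch 2. Of 14 snoRNA host genes and nuclear RNAs, 4 had a positive difference and 0 a negative one. Neat1, the scaffold of paraspeckles, had 328, 326 and 319 CPM with adenosine against 24.4, 14.8 and 21 CPM with DMSO in batch 2, and 802, 709 and 618 CPM with adenosine against 96.4, 127 and 97.3 CPM with DMSO in batch 1. It rose in both (difference 1.17, adjusted p = 0.00422). Malat1, a nuclear speckle RNA, also had a difference of 1.17 (adjusted p = 0.00657), and Lncpint one of 1.5 (adjusted p = 0.0138).

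**Figure D5:**
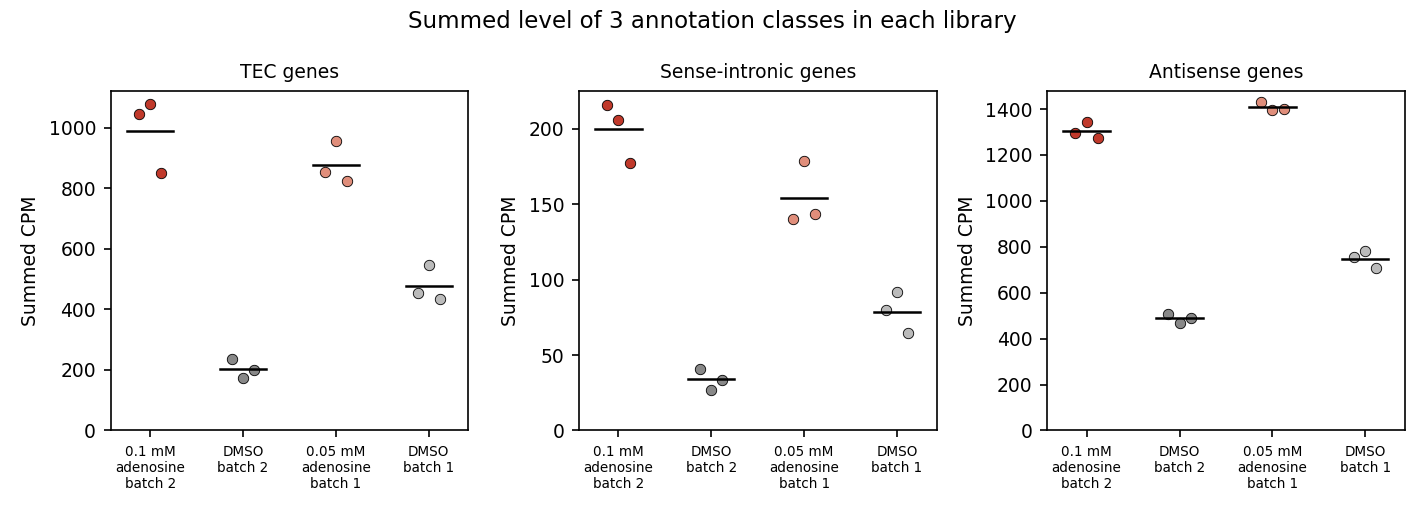
Summed CPM of 272 TEC genes, 40 sense-intronic genes and 230 antisense genes in each of the 12 libraries, with points for libraries and lines for group means. In all 3 classes the adenosine libraries lie above the DMSO libraries of their batch, and the DMSO libraries of batch 2 are the lowest.

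Where a difference was positive, the batches differed more with DMSO than with adenosine. These levels compare tables made separately and carry whatever sets the batches apart. For the 821 positive differences the median absolute gap between batches was 0.42 on the log2 scale with adenosine and 0.97 with DMSO, and the adenosine levels were the closer pair in 71.7% of them, beside 56.1% of all tested genes. The median DMSO level was lower in batch 2 by that measure (-0.93), and for the negative differences it was higher (0.36). Each difference is the adenosine gap minus the DMSO gap, so choosing genes by its sign favours these signs of the DMSO gap. For the 739 negative differences the gaps were 0.33 with adenosine and 0.38 with DMSO, and the adenosine levels were the closer pair in 53.6%. Irs2 shows the first case, with 51.5, 42.3 and 44 CPM with adenosine in batch 2 and 60.0, 40.3 and 47.2 CPM in batch 1, and 7.39, 6.44 and 5.66 CPM with DMSO in batch 2 and 16.6, 18.9 and 20.4 CPM in batch 1.

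Genes with large effects in both batches were chosen by the smaller of the 2 effects and are described here. Arg2, mitochondrial arginase, had 52.7, 37.8 and 57.4 CPM with adenosine against 0.422, 0.261 and 0.239 CPM with DMSO in batch 2, and 45.4, 55.4 and 102 CPM with adenosine against 0.481, 0.199 and 0.740 CPM with DMSO in batch 1. Its difference was 0.05 (SE 0.72, adjusted p = 0.970). The imprinted RNA H19 fell by 6.02 and 6.48 on the log2 scale in batch 2 and batch 1, with a difference of 0.45 (SE 0.81, adjusted p = 0.751). The other shared rises by that rule were Ppp1r3c, Gm26698, Gpr50, Phyhip and Gm43800, all at most 7.52 CPM and at 0 in nearly all DMSO libraries. The other shared falls were the histone genes Hist1h3c and Hist1h2ao, the secreted protein gene C1qtnf3, Cep55, which acts in the last step of cell division, and Ccnb1. The difference of C1qtnf3 was 1.85 (adjusted p = 0.186), and it was called with the replicate block (1.66, adjusted p = 0.0436). Approximate standard errors of 0.72 for Arg2 and 0.81 for H19 leave gaps of that size below what 3 libraries a group could detect.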

How the data were processed

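RNA of 15 satellite cell cultures was amplified by the Smart-Seq2 protocol and fragmented with Tn5, per the labels' protocols. The authors deposited 1 table of raw gene counts for batch 1 and another for batch 2. Per the file headers, featureCounts made the batch 1 counts with no strand option. For batch 2 the counter's settings are not given in the sources. Trim Galore, STAR, featureCounts, Subread, DESeq2 and mm10 are named in the submitters' processing notes. The authors' FPKM table of batch 1, with its log2 fold changes and adjusted p-values, was read for gene names alone.

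Batch 1 had 46078 genes in its table and batch 2 had 13106 lines, 43 of which named no gene (0.0589% of counts) and were left out. Genes with low totals were not in the batch 2 table. Names matched for 13057 genes, of which 8 were at 0 in all batch 1 libraries and 13049 were tested. Counts of all 15 libraries were scaled by TMM and fitted by group with edgeR 4.0.16 in R 4.3.3 (two-sided quasi-likelihood test, p-values adjusted by Benjamini-Hochberg over all tested genes, threshold 0.05). The script was tested on simulated data. CPM values use library totals without TMM. SE is an approximate standard error, the size of the log2 value divided by the square root of its F statistic.

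The members, lists and named genes were chosen with earlier results of these data known. Named genes were the 10 largest differences in each direction among called genes that averaged 10 CPM or more in a group, genes with opposite or shared effects ranked by the smaller effect, up to 4 genes of each list by p-value, and a fixed set. Marker genes, Aldh3a1, Tiparp, Ahr, Arnt, Magi3 and Lars2 were named outside that rule. Classes came from the GENCODE annotation, which matched 13048 genes. Promoters span 250 bases before to 50 bases after a RefSeq start. Alternatives were other scalings, filters, libraries, DESeq2 1.42.0, limma 3.58.1 and a replicate block. Replicate numbers stand in the labels. In batch 2 same-numbered adenosine and DMSO libraries deviated together (r of 0.33, 0.271 and 0.157 across genes, others at most 0.00514). In batch 1 they did not (-0.174, 0.215 and 0.0285), and differently numbered libraries reached 0.313 and 0.233. Deviations were taken from the mean of 3 libraries, so high values for some combinations push the others down. The check therefore cannot settle whether the libraries were pairs. The main fit used no pairs. The block covered both batches, so its calls also assume pairs in batch 1. The number of unmapped sample columns was 0. Some genes that the rule names are not reported here.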

Additional observations from a re-analysis of the deposited data

Results flagged for a closer look

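The 16 genes below had adenosine effects of opposite sign in the 2 batches, and for each the difference passed the interaction test (edgeR quasi-likelihood, adjusted p under 0.05). With higher levels in batch 2 and lower levels in batch 1, the log2 difference was 8.20 for Cyp1b1 and 6.02 for Cyp1a1. It was 3.61 for Gm36963, 3.43 for Gm37960, 3.06 for Gm43268, 2.90 for A430027C01Rik and 2.54 for Gm37894, all of the TEC class, and 3.11 for Dqx1, a helicase-like gene. In the other direction it was -5.22 for Hist2h4 and -1.95 for Hist1h4i, histone H4 genes with near-identical copies. It was -5.73 for the pseudogene Gm12919, which had 0 counts in all DMSO libraries of batch 1, so that its fitted size depends on the prior count. It was -2.41 for Lrrc8e, an anion channel subunit, -2.17 for Gfra1, a receptor for glial neurotrophic factor, -1.42 for Mageh1, -1.33 for Tnfrsf19 and -1.17 for Rpusd2. Dose and batch cannot be told apart in any of these.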

How the results depend on the processing

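Leaving out each library in turn gave 897 to 2064 called differences, 7495 to 8582 genes changed in batch 2, 6002 to 6616 changed in batch 1 and 44 to 122 with opposite directions. The other alternatives kept each of these 4 totals within 1.5 times its reported value, but not their directions: library totals gave 333 negative differences and 2611 genes lowered in batch 2, and without the genes like ribosomal RNA they gave 310 and 2724. The count of differences was 1549 with relative log expression factors, 1393 with library totals (76.1% positive, against 52.6%), 1890 with DESeq2 and 1236 with limma-voom. With the AMP libraries left out of the fit, it was 1324, of which 1298 were among the 1560. The genes with opposite directions then numbered 64. Leaving out the genes like ribosomal RNA, an alternative chosen after seeing the data, gave 1496 differences, and library totals without them gave 1688. The replicate block gave 1725 differences, of which 1468 were among the 1560, with 8454 genes changed in batch 2, 6809 in batch 1 and 90 with opposite directions. Among named genes it added the calls of Myog, Mki67, Aurkb, Atf3 and C1qtnf3 and removed none. Of 120 named genes with a called difference, 92 kept it under every alternative, 11 lost it in 1 to 3 and 17 in more, among them Rpl12, Pold2, Cdc6, Spc24, Zim1, Nnat, Vcam1, Cad, Gadd45b, Psmd11, Pax7, Atf4, Neb, Id3, Dqx1 and Gm12919. None of the 120 changed sign. Of 19 named genes without a called difference, 12 stayed so, while Mki67 was called under 5 alternatives, Aurkb, Ccnd1 and Atf3 under 4 each, and Myog, Ddit3 and C1qtnf3 under 1 each. Uncalled differences that changed sign over the left-out libraries were those of Arg2 (-0.37 to 0.50, and -0.11 with limma-voom), H19 (-0.12 to 0.98), Myod1 (-0.086 to 0.19) and Ccnb1 (-0.49 to 1.75). The cause was not tested.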

Other observations

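Imprinted genes, which are expressed from 1 parental copy, had 3 positive and 1 negative difference among 15 tested. The positive calls numbered 1 without adenosine replicate 1, adenosine replicate 2 or DMSO replicate 2 of batch 2, or adenosine replicate 3 of batch 1, and the negative calls 2 without DMSO replicate 1 of batch 1. Peg3, a zinc finger gene, had 489, 585 and 486 CPM with adenosine against 246, 251 and 235 CPM with DMSO in batch 2, and 233, 236 and 161 CPM with adenosine against 265, 278 and 155 CPM with DMSO in batch 1. It rose in batch 2 and was not called in batch 1, with a difference of 1.12 (SE 0.23, adjusted p = 0.00528, edgeR). Grb10, an adaptor that restrains insulin signalling, fell in both batches, further in batch 2 (difference -0.69, adjusted p = 0.00205).

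Hypoxia response genes had 4 positive and 2 negative differences among 16. Without any 1 of 7 libraries, 1 negative call was left. Adm, a vasodilator peptide, had 101, 95.2 and 113 CPM with adenosine against 12.7, 12.4 and 10.8 CPM with DMSO in batch 2, and 99.8, 94.8 and 98.0 CPM with adenosine against 29.9, 35.4 and 26.0 CPM with DMSO in batch 1 (difference 1.31, adjusted p = 2.05e-04). Vegfa, the vascular growth factor, had a difference of 1.28. Ero1l, an oxidase of protein folding, rose less in batch 2 (difference -0.58).

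In the AMP libraries of batch 2, which share their DMSO libraries with the adenosine contrast, Cyp1a1 had 2.25, 3.52 and 3.16 CPM and Ahrr 3.24, 3.87 and 5.89 CPM.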
